A study of Mus musculus with 6 samples.

Results

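The 10 genes described here are immediate early genes outside the AP-1 family: the zinc finger factors Egr1, Egr2 and Egr3, the orphan nuclear receptors Nr4a1 and Nr4a2, the immediate early response genes Ier2, Ier3 and Ier5, the antiproliferative gene Btg2 and the oncogene Myc. They were chosen by symbol, and each symbol named 1 row among the 28752 genes of the deposited table. RNA sequencing had compared 3 libraries of cells carrying the vector, labelled WT, with 3 libraries labelled circEZH2_005 overexpression. The libraries were titled intestinal crypt stem cells. The study's methods describe Lgr5+ intestinal stem cells sorted from Lgr5-GFP mice and cultured into organoids. Organoids hold several epithelial cell types besides stem cells. Overexpression came from an adenovirus with 72 h of infection, and all libraries of both groups were exposed to hypoxia/reoxygenation with 4 h at 2% O2, so that no library shows the early genes in normal oxygen. How long the cells were reoxygenated before RNA was taken, the age of the Lgr5-GFP donor mice and whether libraries of a group came from separate mice are not given in the sources used here, and p-values therefore measure the spread between these libraries.

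Immediate early genes are transcribed within minutes of a stimulus, because the factors that switch them on are already present and need only be phosphorylated. Growth factors act through the ERK cascade on serum response factor (SRF) and its Elk partners at CArG boxes, and cyclic AMP acts through CREB at cyclic AMP response elements (CREs). The mRNAs are mostly short and unstable, and AUUUA pentamers in the 3'UTR are the core of the AU-rich elements that speed their decay. In the gut, Egr and Nr4a factors respond to growth factors, stress and contact with immune cells, while Myc is held up in crypts by Wnt signals and drives ribosome production and division.

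The sequences below show the elements named above in the promoters of the members for which RefSeq (GRCm38.p6) gave a window of 300 bases, 250 of them before the start site. These were Egr2, Nr4a1, Nr4a2, Ier3, Ier5 and Btg2, 6 of 10 members. Egr1, Egr3, Ier2 and Myc had no entry. Capitals mark the motif, and positions count from the start site to the first base of the motif.
Egr2, a CArG box at -72 followed after 7 bases by a CRE pentamer, chr10:67537793-67537822, plus strand: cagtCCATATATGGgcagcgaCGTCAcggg
Btg2, a whole CRE at -166, chr1:134079303-134079332, minus strand: gttcccaataaTGACGTCAgtgagcgatga
Nr4a1, a CRE pentamer at -69, chr15:101266765-101266794, plus strand: ccgggccgtgtgCGTCAgtggcgcccccgc
Nr4a1, a CRE pentamer at -40, chr15:101266794-101266823, plus strand: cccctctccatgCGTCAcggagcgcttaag
Nr4a2, a CRE pentamer at -144, chr2:57124130-57124159, minus strand: gccggctgcacgCGTCAcggagcccggccg
Ier3, an NF-kB site at -92, chr17:35821611-35821640, plus strand: tgcgaagggcGGAGTTCCCCccggcccggc

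The whole CRE, TGACGTCA, occurred on either strand in 1.79% of all 32851 promoter windows, and among the members in Btg2. The CRE pentamer TGACG, which the whole CRE also contains, occurred in 20.8% of all windows and in those of Egr2, Nr4a1, Nr4a2 and Btg2. The windows of Nr4a1 and Nr4a2 held 4 pentamers each, against 0.231% of all windows with 4 or more. The CArG box occurred in 1.63% of windows and among the members in Egr2, which has 5 start sites in RefSeq. A site for EGR proteins, GCGGGGGCG, occurred in 2.91% of windows and in that of Nr4a1, while its other form, GCGTGGGCG, occurred in 0.612% and in no member. The NR4A site AAAGGTCA was in 1.51% of windows and in no member, and the E-box CACGTG bound by MYC was in 7.15% and in Egr2. NF-kB sites occurred in 8.46% of windows and in those of Egr2, Nr4a1 and Ier3. These shares are per window, whereas Egr2 was searched in 5 windows and each other member in 1. The E-box and the NF-kB sites of Egr2 lay in the same window, which held no CArG box. The window of Ier5 held none of these motifs, and Egr1, Egr3, Ier2 and Myc, without a window, were not searched. These are matches of letters and were not tested as binding sites.

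Most members were compact genes. Their coding transcript with the longest reading frame had between 1 and 8 exons, with a median of 2.0, beside a median of 9.0 over 14347 protein-coding genes tested. The gene spans had a median of 5073 bases, beside 23312 bases, and ran from 1240 to 20527 bases. Nr4a1 and Nr4a2 were the longest, at 20527 and 17174 bases, with 8 exons each. Of all protein-coding genes tested, 48.2% had at most 8 exons. In the 3'UTR, 8 of 10 members had more ATTTA pentamers per kb than the median of 1.28 over 13259 genes. Ier3, whose 3'UTR of 613 bases held 5 pentamers, reached 8.16 per kb, at or above 98.6% of genes. Nr4a1 had 5.52 per kb, Myc 4.52, Egr3 2.65, Egr2 2.50, Btg2 2.27, Nr4a2 2.26 and Egr1 1.64. Ier5 had 0.933 per kb and Ier2 had 0 sites in 755 bases. Stretches of 25 bases from Ier3, Nr4a1 and Btg2 are given below with each pentamer in capitals (GENCODE M21, GRCm38, letters as DNA). That of Ier3 held 2 pentamers. Those of Nr4a1 and Btg2 held 1, the most in any such stretch of these genes, and tie with stretches around their other pentamers.
Ier3 3'UTR, chr17:35822487-35822511, plus strand: attaatATTTAtgtATTTAtgtata
Nr4a1 3'UTR, chr15:101274692-101274716, plus strand: acagattctgATTTAtatttgtgta
Btg2 3'UTR, chr1:134077251-134077275, minus strand: atgaagagctATTTAtacatgtttt

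The libraries held between 71506487 and 79919893 counts. TMM factors from edgeR (0.931 to 1.04) put the counts on a scale per 1000000 counts (CPM), and 3 counts correspond to between 0.0377 and 0.0419 CPM, a floor that covers counting error only. Of 28752 genes, 18348 passed the filter on low counts and were tested with edgeR's quasi-likelihood test, and all p-values were adjusted over these genes by Benjamini-Hochberg. All 10 members passed the filter. Egr2 passed through the circEZH2_005 libraries, since 2 vector libraries reached the minimum of 10 counts at the median depth. Stem cell markers were present, with Olfm4 between 1003 and 2314 CPM and Lgr5 between 7.70 and 18.4 CPM. Markers of leukocytes were present too: the summed level of 13 markers was 81.5, 209 and 101 CPM in vector libraries 1 to 3 and 469, 371 and 286 CPM in circEZH2_005 libraries 1 to 3. None of the 13 was at 0 in any library, 13 of 13 had a positive log2 fold change, and 1 of 13 (Itgax) passed the adjustment by edgeR. Over all genes, edgeR called 2.69% as higher and DESeq2 9.86%. Of the 13, DESeq2 called 4 as higher, and edgeR called 5 without vector library 2, 1 without circEZH2_005 library 3 and 0 without any other 1 library. The common leukocyte marker Ptprc ran from 22.8 to 78.6 CPM with vector and from 103 to 185 CPM with circEZH2_005, and the T cell marker Cd3e from 3.55 to 16.5 and from 21.6 to 37.6 CPM. In such bulk libraries, fewer cells of a type and less RNA per cell cannot be told apart.

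Per kilobase of transcript, the levels of the members spread widely. In vector libraries Ier2 was highest, at 17.7 ± 0.43 FPKM (SD, n = 3), above Btg2 at 12.6 ± 0.55, Ier5 at 11.6 ± 1.51 and Myc at 11.1 ± 4.25 FPKM. The ranges of Btg2 and Ier5, and those of Ier5 and Myc, overlapped, so that their order was not resolved. Ier3 at 2.65 ± 0.39, Egr1 at 2.04 ± 0.92 and Nr4a2 at 1.15 ± 0.21 FPKM came next, and each of these neighbours overlapped the next. Nr4a1 at 0.309 ± 0.12, Egr3 at 0.0821 ± 0.05 and Egr2 at 0.0748 ± 0.04 FPKM were lowest, with Nr4a1 above Egr3 without overlap and the ranges of Egr3 and Egr2 overlapping. In circEZH2_005 libraries Btg2, at 18.4 ± 1.81 FPKM, and Ier2, at 17.7 ± 1.58 FPKM, overlapped at the top, and Egr2 at 0.403 ± 0.25 FPKM stood beside Egr3 at 0.368 ± 0.17 FPKM. There the ranges of Nr4a2, from 0.851 to 1.34 FPKM, and of Nr4a1, from 0.396 to 1.24 FPKM, overlapped.

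**Figure D1:**
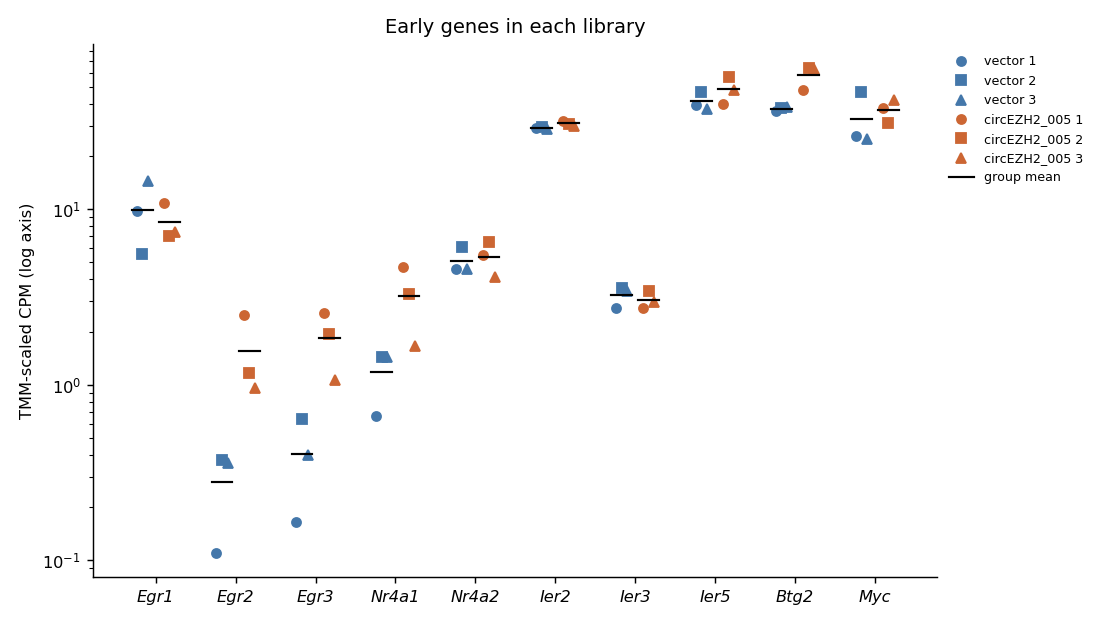
Level of each early gene in TMM-scaled CPM (log axis) in the 3 vector (blue) and 3 circEZH2_005 (orange) libraries, with the symbol's shape giving the library number and the group mean as a line. Egr2, Egr3 and Nr4a1 lie below 5 CPM with wide spreads and no overlap between groups, Btg2 separates at between 36.1 and 63.7 CPM, and Egr1, Nr4a2, Ier3, Ier5 and Myc overlap.

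Between circEZH2_005 and vector, 1 of 10 members passed the adjustment, Btg2, which rose 1.55-fold. Over all genes tested, an adjusted p under 0.05 was reached by 2.69% in the higher direction and by 0.986% in the lower. Egr2, Egr3 and Nr4a1 had larger fold changes, of 5.48, 4.60 and 2.72, and missed the threshold. With a fold change over 2 and an unadjusted p under 0.05, the criterion nearest to that of the study, 3 of 10 members were higher, beside 6.22% of all genes, and 4 of 10 had an unadjusted p under 0.05 with a higher level, beside 14.0%. In 5 of 10 members (Egr2, Egr3, Nr4a1, Ier2 and Btg2) all circEZH2_005 libraries lay above all vector libraries, and in 0 of 10 below, beside 16.4% and 14.2% of all genes. No member was lower by edgeR, by DESeq2 or, among the 8 members it tested, by limma, and 0 were lower with an unadjusted p under 0.05 by edgeR. DESeq2 called 4 members as higher, namely Btg2, Egr2, Egr3 and Nr4a1, and 0 as lower, beside 9.86% and 5.02% of the 16555 genes to which it gave an adjusted p. The median log2 fold change of the members was 0.20, beside 2.15e-05 over all genes tested.

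**Figure D2:**
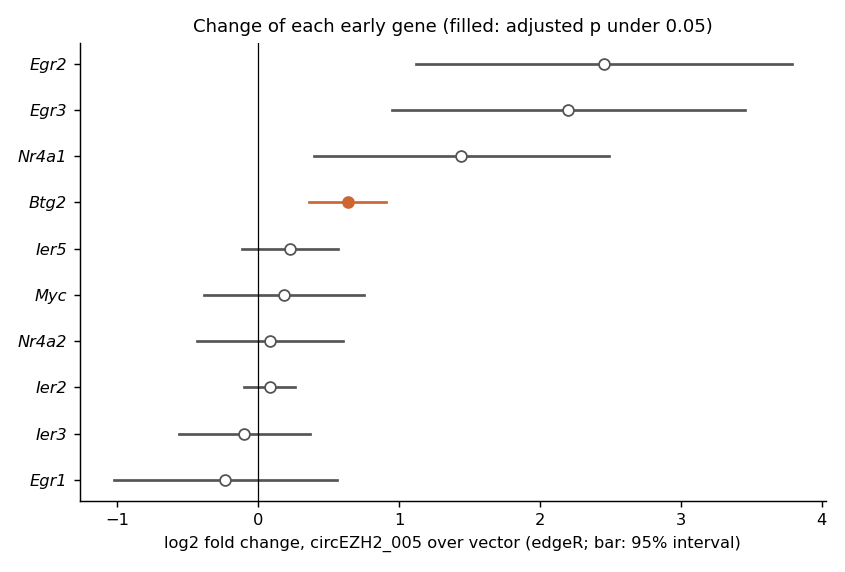
Log2 fold change of each early gene, circEZH2_005 over vector, from edgeR, with its 95% interval as a bar (n = 3 libraries per group). Btg2, the filled point, has the narrowest interval away from 0 (0.36 to 0.91), while those of Egr2 (1.12 to 3.79), Egr3 (0.95 to 3.46) and Nr4a1 (0.40 to 2.49) are wide, and the other 6 include 0.

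The EGR proteins are zinc finger factors that bind GC-rich sites and turn on genes of growth and differentiation. Egr1 (ENSMUSG00000038418, chromosome 18, 34859823 to 34864984, plus strand, GRCm38) had 9.75, 5.54 and 14.5 CPM in vector libraries 1 to 3 and 10.9, 7.01 and 7.44 CPM in circEZH2_005 libraries 1 to 3. The groups overlapped, and vector library 3 was the highest. Fitted by edgeR, the log2 fold change was -0.23 (SE 0.34, 95% interval -1.02 to 0.56, adjusted p = 0.736 by edgeR). Without vector library 3 it was 0.14, so that no direction held.

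Egr2 (ENSMUSG00000037868, chromosome 10, 67535475 to 67542188, plus strand) was nearly silent with vector. It was the member with a CArG box among the 6 that had a promoter window, and Egr1 and Egr3 had none to search. Its counts were 8, 28 and 28 in vector libraries 1 to 3 and 200, 87 and 69 in circEZH2_005 libraries 1 to 3, or 0.281 ± 0.15 CPM and 1.55 ± 0.84 CPM (SD, n = 3 each). Every circEZH2_005 library was above every vector library, with circEZH2_005 library 1 the highest and vector library 1 the lowest. The log2 fold change was 2.45 (SE 0.57, adjusted p = 0.0584 by edgeR). Leaving out each library in turn gave between 1.91 and 2.71, with adjusted p-values between 0.0600 and 0.178.

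Egr3 (ENSMUSG00000033730, chromosome 14, 70077203 to 70082614, plus strand), which acts in the same cells as Egr2 in many settings, had counts of 12, 48 and 31 with vector and of 204, 144 and 76 with circEZH2_005. This is 0.401 ± 0.24 CPM and 1.85 ± 0.76 CPM (SD, n = 3 each). As for Egr2, vector library 1 was the lowest and circEZH2_005 library 1 the highest, and the groups did not overlap. On the log2 scale it differed by 2.20 (SE 0.54, adjusted p = 0.0639 by edgeR). Egr3 passed in 1 of the 6 edgeR fits with 1 library left out, that without vector library 2 (2.71, adjusted p = 0.0327). In that fit the genes called higher also rose, from 493 to 1098. With all 6 libraries, DESeq2 called Egr3 as higher (adjusted p = 0.0017).

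Relative to Egr1 of the same library, Egr2 and Egr3 were nearer in level with circEZH2_005 than with vector. The log2 ratio of Egr2 to Egr1 was -6.46, -3.89 and -5.34 in vector libraries 1 to 3 and -2.11, -2.58 and -2.95 in circEZH2_005 libraries 1 to 3, a difference of 2.68. That of Egr3 to Egr1 was -5.88, -3.11 and -5.19 against -2.08, -1.86 and -2.81, a difference of 2.48. In both ratios the groups did not overlap (exact permutation test, two-sided, p = 0.1, which is as low as 3 libraries against 3 allow). The ratios reuse the counts of Egr2 and Egr3, whose groups did not overlap either, and are therefore not separate evidence. In all, 3 ratios were computed. Egr4, the last of the family, had at most 4 counts in a library and was not tested. Nab1 and Nab2, corepressors that bind EGR proteins, had log2 fold changes of 0.28 and 0.12 (adjusted p = 0.191 and 0.789 by edgeR).

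The NR4A receptors bind DNA without a known physiological ligand, so that their level sets much of their activity. Nr4a1 (ENSMUSG00000023034, chromosome 15, 101254269 to 101274795, plus strand) had counts of 48, 108 and 113 with vector and of 373, 246 and 119 with circEZH2_005, which is 1.18 ± 0.45 CPM and 3.22 ± 1.52 CPM (SD, n = 3 each). The groups touched closely, with 1.66 CPM in circEZH2_005 library 3 against 1.45 CPM in vector library 2. This is a log2 fold change of 1.44 (SE 0.45; edgeR's adjusted p = 0.107), and without circEZH2_005 library 1 it was 1.07 (adjusted p = 0.219).

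Nr4a2 (ENSMUSG00000026826, chromosome 2, 57106830 to 57124003, minus strand) was at 4.59, 6.06 and 4.59 CPM with vector and at 5.51, 6.54 and 4.09 CPM with circEZH2_005. Its groups overlapped, with the lowest library and the highest both among the circEZH2_005 samples. The log2 fold change was 0.08 (95% interval -0.44 to 0.60, adjusted p = 0.865 by edgeR). The log2 ratio of Nr4a1 to Nr4a2 was -2.79, -2.07 and -1.67 with vector and -0.23, -0.98 and -1.30 with circEZH2_005, without overlap (difference 1.34, exact permutation test, two-sided, p = 0.1). This ratio reuses the counts of Nr4a1, whose groups did not overlap either. Nr4a3, the relative that is not a member, was at 0.801, 1.43 and 0.613 CPM with vector and at 4.57, 2.31 and 1.26 CPM with circEZH2_005, with overlapping groups and a log2 fold change of 1.51 (SE 0.52; edgeR's adjusted p = 0.133).

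The levels of Egr2, Egr3 and Nr4a1 moved with the leukocyte markers. Both were lowest in vector library 1 and ran through circEZH2_005 libraries 3 and 2 to circEZH2_005 library 1, with vector libraries 2 and 3 in between. For the markers and for Egr3, vector library 2 was above vector library 3, whereas for Egr2 (28 and 28 counts) and Nr4a1 (108 and 113 counts) the order of these libraries was not resolved. Taken by CPM alone, 3 of 10 members, these 3, stood in the full order of the markers, beside 2.11% of all genes tested. Ier2 also rose through circEZH2_005 libraries 3, 2 and 1, above all vector libraries, but was lowest in vector library 3. Egr2, Egr3 and the NR4A receptors are also induced in T cells by their antigen receptor. The part of leukocyte RNA in these differences was not tested. Btg2 did not share the order: among the circEZH2_005 libraries it was lowest in library 1, where the leukocyte markers were highest.

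**Figure D3:**
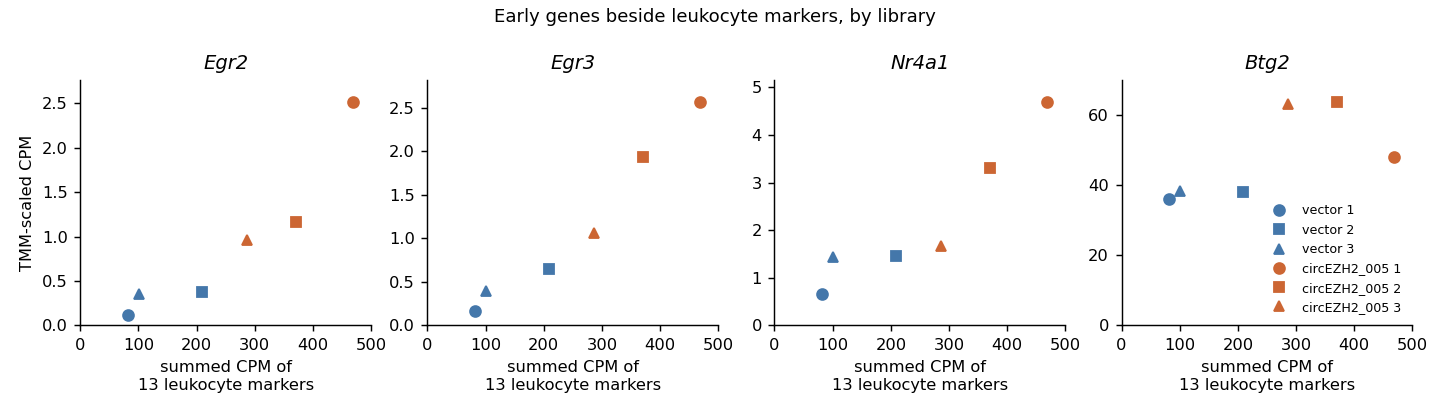
TMM-scaled CPM of Egr2, Egr3, Nr4a1 and Btg2 in each of the 6 libraries (vertical axes) against the summed CPM of 13 leukocyte markers (horizontal axes), with vector in blue and circEZH2_005 in orange. Egr2, Egr3 and Nr4a1 are lowest in vector library 1, at 81.5 CPM of markers, and highest in circEZH2_005 library 1, at 469 CPM, with vector libraries 2 and 3 level in Egr2 and Nr4a1, whereas Btg2 is lower in circEZH2_005 library 1 than in circEZH2_005 libraries 2 and 3.

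The Ier genes encode small proteins that are induced early but share little else. Ier2 (ENSMUSG00000053560, chromosome 8, 84661331 to 84662854, minus strand), a nuclear protein, was the steadiest member, with 29.2, 29.6 and 28.6 CPM with vector and 31.9, 30.8 and 29.9 CPM with circEZH2_005. Its circEZH2_005 libraries all lay above the vector libraries, but by little: the log2 fold change was 0.08 (95% interval -0.10 to 0.26, adjusted p = 0.577 by edgeR). Ratios of FPKM gave it the opposite sign, at -0.01.

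Ier3 (ENSMUSG00000003541, chromosome 17, 35821684 to 35822923, plus strand) is a target of NF-kB that protects cells from apoptosis, and carries the NF-kB site and the densest ATTTA stretch shown above. It was at 2.75, 3.56 and 3.42 CPM with vector and at 2.73, 3.41 and 2.96 CPM with circEZH2_005. The groups overlapped, and the log2 fold change was -0.10 (95% interval -0.56 to 0.37, adjusted p = 0.818 by edgeR).

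Ier5 (ENSMUSG00000056708, chromosome 1, 155096361 to 155099636, minus strand), which brings a phosphatase to heat shock factor HSF1, was at 39.3, 46.7 and 37.4 CPM with vector and at 39.8, 57.0 and 47.7 CPM with circEZH2_005. Its log2 fold change was 0.23 (95% interval -0.11 to 0.57, adjusted p = 0.398 by edgeR), and the groups overlapped. Its relative Ier5l lay lower in every circEZH2_005 library, at 0.296 to 0.390 CPM against 0.575 to 0.815 CPM, which is -0.95 on the log2 scale and missed the threshold (adjusted p = 0.182 by edgeR). For the 3 Ier members, the intervals leave out changes of more than 1.5-fold in either direction, since the widest reached -0.56 and 0.57 on the log2 scale.

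Btg2 (ENSMUSG00000020423, chromosome 1, 134075170 to 134079120, minus strand) restrains division and brings the CCR4-NOT deadenylase to mRNAs, and p53 and CREB are among its activators. Its counts were 2617, 2833 and 3001 in vector libraries 1 to 3 and 3810, 4738 and 4514 in circEZH2_005 libraries 1 to 3. This is 37.5 ± 1.17 CPM and 58.2 ± 8.91 CPM (SD, n = 3 each), with the vector libraries close together, from 36.1 to 38.3 CPM, and circEZH2_005 library 1 the lowest of its group at 47.9 CPM. The log2 fold change was 0.64 (SE 0.12, 95% interval 0.36 to 0.91, adjusted p = 0.0375 by edgeR), which placed Btg2 at rank 391 by p-value. The call was lost in several fits with 1 library fewer. Without circEZH2_005 library 2 or 3, or without vector library 1 or 3, the adjusted p by edgeR was 0.127, 0.0925, 0.155 and 0.148. The log2 fold changes there stayed between 0.56 and 0.65, with unadjusted p-values between 0.0035 and 0.0045. In these fits the genes called higher also fell, from 493 to between 26 and 136. With no filter on low counts the adjusted p of Btg2 was 0.0747.

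Btg1, a close relative, was at 92.2 to 107 CPM with vector and at 121 to 128 CPM with circEZH2_005, without overlap (log2 fold change 0.30, adjusted p = 0.0873 by edgeR), and the log2 fold change of Btg3 was 0.14 (adjusted p = 0.662). Among 15 deadenylase subunits and p53-related genes tested, 0 were higher and 1, Ccng1, was lower with an adjusted p under 0.05. Ccng1, a target of p53, fell by 0.47 on the log2 scale (adjusted p = 0.0239 by edgeR), and this call was lost without vector library 1 or 3 or circEZH2_005 library 2 or 3. The p53 target Cdkn1a had a log2 fold change of 0.76 (adjusted p = 0.0862). The median of this list was -0.04. By unadjusted p under 0.05, 2 were higher, beside 14.0% of all genes, and 1 lower, and DESeq2 called 1 higher.

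Myc (ENSMUSG00000022346, chromosome 15, 61985391 to 61990350, plus strand) was at 26.1, 46.5 and 25.2 CPM with vector and at 37.7, 30.9 and 42.2 CPM with circEZH2_005. The groups overlapped because vector library 2 was the highest of all. In that library the summed level of 6 stem cell markers was also highest, at 2500 CPM against 1640 and 1710 CPM in vector libraries 1 and 3 and 1140 to 1710 CPM with circEZH2_005. Most of that sum was Olfm4, at 2314 CPM. The markers did not move together: among the vector libraries, Olfm4, Ascl2 and Axin2 were highest in library 2. There Lgr5 and Smoc2 were lowest, at 12.1 and 88.9 CPM, and Sox9 lay between the others. Whether the level of Myc is linked to any of these markers was not tested. The log2 fold change was 0.18 (95% interval -0.39 to 0.75, adjusted p = 0.709 by edgeR), and without vector library 2 it was 0.53 (adjusted p = 0.0740). Mycl had a log2 fold change of -0.73 (adjusted p = 0.105) and lay lower in every circEZH2_005 library, and that of Mycn was 0.20 (adjusted p = 0.821).

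Of 10 partners and antagonists of MYC, 1 passed the adjustment. Mxd1, which competes with MYC for its partner MAX and marks differentiating cells, rose from 126 to 171 CPM with vector to 267 to 477 CPM with circEZH2_005, or by 1.37 on the log2 scale (edgeR's adjusted p = 0.0263). Mxi1, a related antagonist, had 0.83 (adjusted p = 0.0673). By unadjusted p under 0.05, 5 of the 10 were higher, beside 14.0% of all genes, and 0 lower. DESeq2 called 4 as higher, beside 9.86% of all genes. Of 20 MYC targets, 0 were higher and 1 was lower after adjustment, beside 2.69% and 0.986% of all genes tested. Among the targets, 19 had a negative log2 fold change, with a median of -0.23. In every circEZH2_005 library 10 targets lay lower, beside 14.2% of all genes. Tfrc, the transferrin receptor, fell by 1.35 on the log2 scale (adjusted p = 0.0203), and the spermidine synthase gene Srm had -0.41 (adjusted p = 0.0676). Tfrc is also controlled by cellular iron through its mRNA. By unadjusted p under 0.05, 0 targets were higher and 8 lower, a rule for which the share of all genes lower was not computed. DESeq2 called 5 as lower and 0 as higher, beside 5.02% and 9.86% of all genes. The single calls of Mxd1 and of Tfrc were lost without vector library 1 or 3 or circEZH2_005 library 2 or 3.

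The 10 members can be set beside the lists that surround them in the early response. Over all genes tested, edgeR passed 2.69% as higher and 0.986% as lower. An unadjusted p under 0.05 with a higher level was reached by 14.0% of all genes. The share with a lower level was not computed, so that counts of lower genes by this rule stand without it in every list. Of 8 family relatives tested, those named above, 0 passed in either direction by edgeR, with a median log2 fold change of 0.17. By unadjusted p under 0.05, 3 relatives were higher and 2 lower, and DESeq2 called 2 higher and 1 lower. Of 7 AP-1 genes tested, 6 passed as higher and 0 as lower, with a median log2 fold change of 1.07, led by p-value by Jun, with 1.51 (adjusted p = 0.00249 by edgeR), and Fosb, with 2.74 (adjusted p = 0.0138). Of 12 feedback genes of the MAPK pathway, 4 passed as higher and 0 as lower, with a median of 0.42. All 4 encode phosphatases: Dusp1, Dusp6, Dusp8 and Dusp10 had log2 fold changes between 1.00 and 1.32, and the ERK phosphatase Dusp6 rose from 43.3 to 56.2 CPM with vector to 87.2 to 133 CPM. Of 28 other primary response genes tested, 4 passed as higher and 0 as lower, with a median of 0.16: Klf4, Klf6, Gadd45a and Rhob. The largest rises among these were those of the small GTPase Rhob, with 1.77 (adjusted p = 0.0106 by edgeR), and the epithelial factor Klf4, with 1.54 (adjusted p = 0.0138). These counts changed with 1 library left out. Those of AP-1, feedback and other primary response genes were 1, 0 and 0 without vector library 1 or vector library 3. They were 1, 0 and 3 without circEZH2_005 library 2, and 2, 0 and 3 without circEZH2_005 library 3. They were 5, 4 and 7 without vector library 2, and 6, 2 and 6 without circEZH2_005 library 1. The 7 AP-1 genes had an unadjusted p under 0.05 and a higher level in each of these fits.

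**Figure D4:**
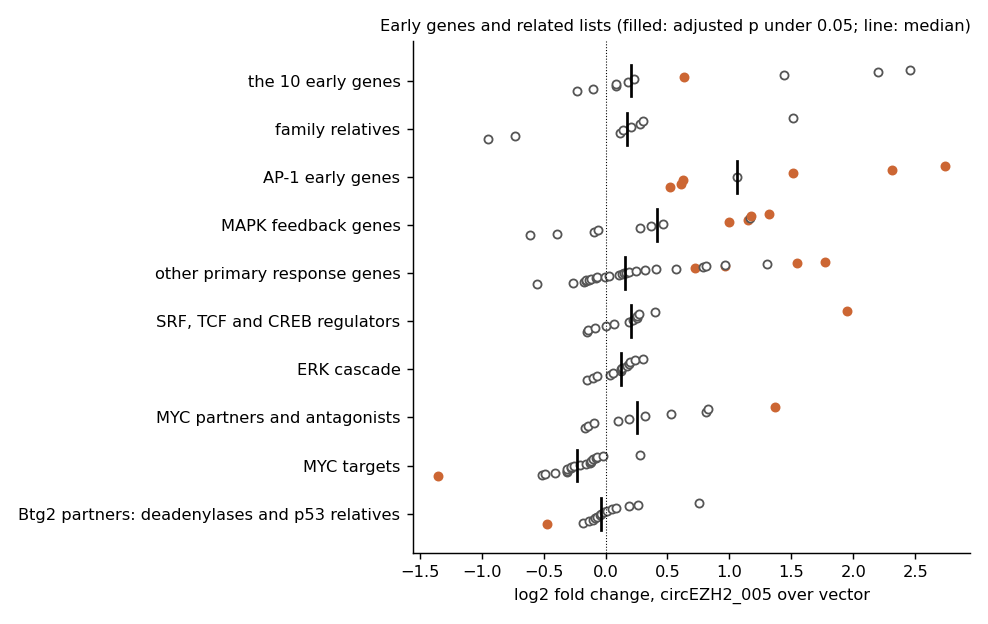
Log2 fold changes, circEZH2_005 over vector, of the 10 early genes and of 9 related lists, with 1 point per gene tested, filled where the adjusted p was under 0.05, and the median as a vertical line. The AP-1 genes have the highest median, 1.07, with 6 of 7 filled, and the MYC targets the lowest, -0.23, with 1 of 20 filled, while the 10 early genes have 0.20 with 1 filled.

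Regulators that act upstream of the early genes were read at the mRNA level. Of 13 genes of the ERK cascade, 0 passed in either direction by edgeR, by DESeq2 or by limma, with a median of 0.13. Of these, 3 had an unadjusted p under 0.05 with a higher level by edgeR, beside 14.0% of all genes. The smallest adjusted p by edgeR was 0.144, that of Mapk3, with a log2 fold change of 0.30. Of 12 SRF, Elk and CREB regulators, 1 was higher and 0 were lower: Elk3, a partner of SRF, with 0.829 to 2.48 CPM with vector and 5.15 to 7.22 CPM with circEZH2_005, or 1.95 on the log2 scale (edgeR's adjusted p = 0.0412). Elk3 stood in the same order of libraries as Egr3 and the leukocyte markers, and without any 1 library other than vector library 2 no gene of its list passed. Mrtfa, which encodes a coactivator of SRF, was at 0.27 on the log2 scale (edgeR's adjusted p = 0.161). Epithelial markers were read beside these genes. Of 6 stem cell markers 2 passed, Lgr5 and Smoc2, which fell by 0.88 and 0.81 on the log2 scale (adjusted p = 0.0434 and 0.0203 by edgeR), while Ascl2 had -0.68, Olfm4 -0.42, Sox9 -0.27 and Axin2 0.31. Of 6 enterocyte markers 1 passed, Apoa4, which rose by 0.91 (adjusted p = 0.0279), and of the others 4 had a positive log2 fold change and Fabp1 had -0.37. Of 5 goblet markers Clca1 rose by 0.76 (adjusted p = 0.0433), of 4 enteroendocrine markers Neurog3 fell by 1.11 (adjusted p = 0.0394), and of 5 Paneth markers 0 passed by edgeR and 5 had a negative log2 fold change, with 1 lower at an unadjusted p under 0.05 and 1 called lower by DESeq2. Without vector library 1 or 3 or circEZH2_005 library 2 or 3, none of these marker lists had a call, and without circEZH2_005 library 1 the stem cell, enterocyte, goblet and enteroendocrine lists had 1, 4, 0 and 0. The summed level of the 6 enterocyte markers was 8070 to 9260 CPM with vector and 10100, 17200 and 14400 CPM in circEZH2_005 libraries 1 to 3, so that library 1 was the lowest of its group here, as it was for Btg2 and Mxd1. The part of a shift in cell types in the changes of Btg2 and Mxd1 was not tested.

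Across the 6 libraries, the genes whose level was most like the mean standardized level of the 10 members, out of 9258 genes averaging 10 CPM or more, were Cep120 (Pearson's r = 0.995), Zcchc2 (0.993), Sntb2 (0.993), Fam83b (0.993) and Nfatc1 (0.988). These correlations are over 6 libraries that share the division into groups. Nfatc1, a calcium-regulated factor, was at 7.42, 14.7 and 11.2 CPM with vector and at 20.8, 20.2 and 15.9 CPM with circEZH2_005 (log2 fold change 0.77, adjusted p = 0.111 by edgeR). None of the 5 passed the adjustment, with the smallest adjusted p that of Nfatc1.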

How the data were processed

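RNA from 3 vector and 3 circEZH2_005 libraries, made with oligo(dT) selection, was measured by sequencing. The authors deposited 1 table with raw read counts and FPKM values per gene and library. The submitters' processing notes name cutadapt 1.9, HISAT2 2.0.4, StringTie 1.3.4d, DESeq2 and the build mm10, with no role given. The read counter, its annotation and its use of strand are not given in the sources used here, so that overlapping antisense transcription could not be separated. The control columns are headed NC and were taken as the vector group, the other group being named in its columns. The FPKM values that the authors made are per length and were used for the order of levels and in limma. Columns with the authors' own fold changes and p-values were not used.

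Counts were tested with edgeR 4.0.16 in R 4.3.3: filterByExpr at its default minimum of 10 counts, TMM scaling, glmQLFit and glmQLFTest without covariates, and Benjamini-Hochberg adjustment over 18348 genes at 0.05. Standard errors were derived from the fitted change and its F statistic. The 6 libraries, at 71506487 to 79919893 counts, resolve down to 3 counts, or 0.0419 CPM at most. On simulated counts with 200 of 17725 genes changed by 1.5 on the log2 scale, 60.5% were recovered, and 8.33% of the calls were unchanged genes. Alternatives were DESeq2 1.42.0, limma 3.58.1 on log2(FPKM + 1) and log2(FPKM + 0.1), 2 other scalings, 2 other filters, a replicate block and leaving out each library. The exact permutation tests were two-sided. Gene positions are from the deposited table, and 28678 of 28752 identifiers were in GENCODE M21 (GRCm38).

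The genes named are the members, their family relatives, up to 2 genes with the smallest p-value in each list, the other genes of a list past the adjustment, and the 5 genes most like the members. Others (the markers Ptprc, Cd3e, Olfm4, Ascl2, Sox9, Axin2 and Fabp1) were named after their values were seen, and 1 gene that the rule names is not reported here. The members and lists were chosen with earlier results of these data known.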

Additional observations from a re-analysis of the deposited data

How the results depend on the processing

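Against 493 genes higher and 181 lower by edgeR, the counts were 132 and 37 with no filter on low counts, 1632 and 831 by DESeq2, 323 higher and 319 lower by limma on log2(FPKM + 0.1), and 364 lower by limma on log2(FPKM + 1). Leaving out 1 library at a time gave 26 to 1098 higher, 2 to 334 lower, and 0 to 2 members higher against 1: 0 without vector library 1 or 3 or circEZH2_005 library 2 or 3, and Btg2 and Egr3 without vector library 2. With no filter 0 members were higher and by DESeq2 4. Of the 3 members with a fold change over 2 and an unadjusted p under 0.05, 0 were counted at a mean of at least 2 FPKM, where they were not tested, 0 by limma on log2(FPKM + 1) and 1 by limma on log2(FPKM + 0.1), and 2 to 3 with 1 library left out. The signs of small changes reversed: Egr1 was at 0.14 without vector library 3 (range -0.52 to 0.14 over the left-out libraries), Ier2 at -0.0055 and -0.0059 and Nr4a2 at -0.0059 and -0.015 by limma with pseudocounts of 1 and 0.1, and Nr4a2 at -0.082 without circEZH2_005 library 2 (range -0.082 to 0.25). Btg2 had an adjusted p under 0.05 in 8 of 14 alternatives (0.000266 to 0.155, log2 fold change 0.50 to 0.76), Egr2 in 1 of 11, Egr3 in 2 of 11 and Nr4a1 in 1 of 13. The causes were not tested. Fewer than 100 counts in most libraries limit Egr2. Same-numbered libraries did not deviate together (correlations of -0.14, -0.023 and 0.036), and pairs of different numbers lay between -0.13 and 0.15. With 3 libraries per group, such correlations cannot show whether same-numbered libraries were prepared together. With the replicate block 241 genes were higher, 36 lower and 0 members higher (Btg2 adjusted p = 0.0606 by edgeR).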
